A study of Rattus norvegicus with 20 samples.

Results

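miR-9 is a microRNA (miRNA) of the nervous system, and its hairpin precursor gives a mature RNA from each arm. The rat array used here measured both, as rno-miR-9 and rno-miR-9* (the older name of the strand from the 3′ arm). They were taken as the rows with these exact names in the scanner output, 2 of the 350 rat miRNAs on the array. Their signals were followed over all 20 arrays, 10 of dorsal root ganglia (DRGs, which hold the cell bodies of sensory neurons) and 10 of soleus, a slow skeletal muscle of the calf.

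miRNAs are short RNAs that guide Argonaute proteins to messenger RNAs and lower their translation or stability. The target is chosen mainly by the seed, bases 2 to 8 of the miRNA, so the strands of a hairpin have different targets. miR-9 is abundant in brain, where it acts in neural progenitors and in neurons, with targets that include the transcriptional repressor REST and the axonal protein Map1b. miR-9* also enters Argonaute complexes, and its known targets include CoREST, a partner of REST.

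The samples came from adult male Sprague-Dawley rats, and the study asked how miRNA levels in ganglia and muscle differ between an entrapped, a decompressed and a cut sciatic nerve. Denervation was a cut of this nerve with removal of a segment, and tissue was taken after 6 months. In the entrapment group a silastic tube that did not constrict the nerve had been left around it for 6 months. In the decompression group the tube was removed after 6 months of entrapment, and tissue was taken 3 months later. The control rats had a sham operation, and the time of their tissue collection is not given in the sources used here. The ganglia were those on the side of the injury. Each injury group had 3 arrays per tissue and sham had 1. The Methods name 3 rats in every group, and the labels number the 3 arrays of an injury group as experimental replicates without tying an array to a rat. The labels call each sham array biological replicate 1, and the sources used here do not say further whether the sham RNA was of 1 rat or a pool. The p-values measure the spread between these arrays.

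The mature strands are shown first because the results turn on the difference between them. Sequences are from RefSeq (assembly GRCr8), where miR-9 is named rno-miR-9a-5p and miR-9* rno-miR-9a-3p, written 5′ to 3′ with the seed in capitals.
miR-9: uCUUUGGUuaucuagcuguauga
miR-9*: aUAAAGCUagauaaccgaaagu
miR-9 has 23 bases and miR-9* has 22. No other mature rat miRNA in the RefSeq table used here has either seed.

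Both strands are encoded at 3 loci of the rat genome, whose hairpins are shown with the mature strands in capitals, first the 5′ arm and then the 3′ arm.
Mir9-1: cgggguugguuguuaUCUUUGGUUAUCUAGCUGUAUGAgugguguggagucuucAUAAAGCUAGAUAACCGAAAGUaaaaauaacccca
Mir9-2: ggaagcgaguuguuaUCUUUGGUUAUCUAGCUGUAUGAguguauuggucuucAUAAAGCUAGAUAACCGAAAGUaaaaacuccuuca
Mir9-3: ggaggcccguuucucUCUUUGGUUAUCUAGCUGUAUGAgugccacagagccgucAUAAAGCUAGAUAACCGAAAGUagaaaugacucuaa
Mir9-1 lies at chr2:175974971-175975059 on the plus strand, inside the span of the non-coding RNA gene LOC100911992. Mir9-2 lies at chr2:15933292-15933378 on the plus strand, inside the span of its host gene Mir9-2hg. Mir9-3 lies at chr1:142849400-142849489 on the plus strand, inside the span of its host gene Mir9-3hg. The annotation table used here gives gene spans and not exons. The mature strands are identical at the 3 loci, so the array signal is that of the loci together.

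The same loci also carry miRNAs on the opposite DNA strand, rno-miR-9b, which the array does not list. RefSeq gives miR-9b-5p at 3 loci and miR-9b-3p at 2. Their sequences are shown, with the seed in capitals, because they resemble those of miR-9.
miR-9b-5p: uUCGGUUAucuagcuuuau
miR-9b-3p: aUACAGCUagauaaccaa
The longest run of bases shared by miR-9 and miR-9b-5p was 12, and by miR-9* and miR-9b-3p it was also 12, while both seeds differ. Binding of miR-9b to the miR-9 probes was not tested.

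Signals are background-subtracted fluorescence intensities summed over the probes of a miRNA. For comparisons between arrays they were divided by the array's 75th percentile and brought to a common mean, and are then called scaled signals. miR-9 and miR-9* were detected on 10 of 10 DRG arrays. In soleus both strands were detected on 0 of 10 arrays, with signals between -6.46 and -0.17 for miR-9 and between -8.97 and -1.78 for miR-9*, at scanner errors of 2.22 to 4.46. No difference between soleus groups could therefore be measured for either strand. With all 20 arrays scaled together, miR-9 was at least 104-fold and miR-9* at least 126-fold higher in DRGs than in soleus, counted against the lowest detected signal where the soleus signal was below it. For the tests, every soleus value of both strands was set to a floor of 2.34, so these values had no spread and the p-values rest partly on that floor. The log2 difference tested was 7.07 for miR-9 and 7.20 for miR-9*. The limma adjusted p was 1.11e-20 for miR-9 and 3.18e-21 for miR-9* (Benjamini-Hochberg over 234 miRNAs). The exact permutation p was 1.08e-05 for both, the smallest that 184756 splits of the arrays allow. Of the 234 miRNAs, 62.4% were called higher in DRGs and 18.8% lower. As a check of the tissue labels, the sensory neuron cluster (miR-183, miR-96 and miR-182) was detected on all 10 DRG arrays and on 0, 1 and 2 soleus arrays, in that order. The muscle miRNAs miR-1, miR-133a and miR-133b were detected on all 20 arrays. The 6 muscle miRNAs on the array summed to scaled signals of 252 to 401 in DRGs and of 56279 to 342043 in soleus, where each tissue was scaled by itself.

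The DRG arrays differed in overall signal along the same line as the groups. The sham and denervation arrays detected 213 to 233 of 348 miRNAs, and the entrapment and decompression arrays 183 to 200. The 75th percentile of their signals was 97.5 to 117 and 72.0 to 88.1, respectively. Of 45 control features, which measure no rat miRNA, 24 parted the 6 entrapment and decompression arrays from the other 4 before scaling. Their unscaled signals were lower in the 6 for 15 of them and higher for 9. The handling of the arrays and the nerve condition cannot be told apart for differences along this line. In addition, the authors' processed table names 3 entrapment columns whose values are those of the decompression scanner files and the reverse, so which of these 2 conditions an array holds rests on the labels of the scanner files.

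In the DRGs, miR-9 was lower after entrapment and after decompression than after denervation or in the sham control, whereas no such difference was measured for miR-9*. The scaled signal of miR-9 was 417 in the sham array and 449, 396 and 504 in the 3 denervation arrays. It was 156, 191 and 186 in the entrapment arrays and 181, 173 and 171 in the decompression arrays. The 6 arrays of entrapped and decompressed nerves were thus all below the other 4, with no overlap, an order that 26.9% of the 219 miRNAs tested had. Before scaling, the signals were 473 in sham, 439 to 601 in denervation, 128 to 187 in entrapment and 147 to 167 in decompression, with scanner errors of 7.33% to 8.37% of the signal.

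For miR-9*, the scaled signal was 279 in the sham array and 313, 291 and 321 in the denervation arrays. The entrapment arrays gave 282, 350 and 322, and the decompression arrays 279, 312 and 319. The 3 injury groups overlapped. The sham value was below every denervation and entrapment array, an order that 33.8% and 26.0% of the miRNAs tested had, and within the range of the decompression arrays. The unscaled signal of miR-9* was between 231 and 415, with scanner errors of 7.22% to 7.41%.

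**Figure D1:**
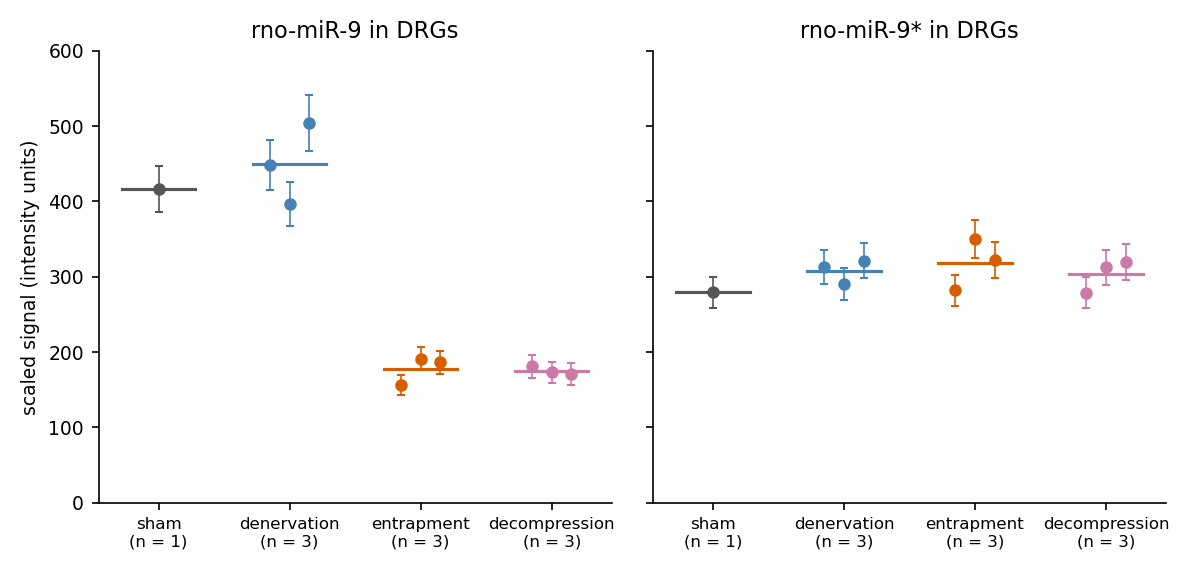
Scaled array signal (linear axis, intensity units) of miR-9 and miR-9* in the 10 DRG arrays, with 1 point per array, the scanner's error as a bar and a line at each group mean. For miR-9 the 6 entrapment and decompression arrays (156 to 191) lie below the sham and denervation arrays (396 to 504), and for miR-9* all groups lie between 279 and 350.

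The mean scaled signal of miR-9 was 449 ± 53.8 (SD, n = 3) in denervation, 178 ± 18.9 (SD, n = 3) in entrapment and 175 ± 5.29 (SD, n = 3) in decompression. The order of the levels was denervation, sham, entrapment and decompression, where neither the first pair nor the last pair differed beyond the spread of the arrays. Entrapment was 2.52-fold lower than denervation, a log2 difference of -1.34 (SE 0.11, 95% confidence interval -1.59 to -1.08, adjusted p = 3.96e-05 by limma with Benjamini-Hochberg adjustment over 219 miRNAs). In this comparison 32.9% of the miRNAs tested were called lower and 8.22% higher, and miR-9 ranked 21 from the lowest. Decompression was 2.56-fold lower than denervation, a log2 difference of -1.35 (limma adjusted p = 4.34e-05), against 27.9% called lower and 8.68% higher, and miR-9 ranked 22. The median of all miRNAs tested was -0.15 in both, and relative to it miR-9 was lower by a log2 difference of -1.19 and -1.21. A bulk ganglion sample does not tell fewer cells of a type from less RNA per cell.

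Against the sham array, miR-9 was 2.35-fold lower in entrapment, a log2 difference of -1.23 (SE 0.16, 95% confidence interval -1.60 to -0.87, limma adjusted p = 0.000971). In decompression it was 2.38-fold lower, a log2 difference of -1.25 (limma adjusted p = 0.00087). The share of miRNAs called lower was 17.4% in entrapment and 16.4% in decompression, and 2.28% and 1.83% were called higher. Sham had a single array, so its own spread is unknown and was taken to equal that of the other groups. The entrapment and decompression comparisons share this array and are not independent of each other. Scaling to the median of each array in place of the 75th percentile ended both calls (log2 difference -0.39, limma adjusted p = 0.177, and -0.40, limma adjusted p = 0.159). It moved the median of all miRNAs to 0.73 in both. Relative to that median miR-9 stood at -1.12 and -1.13 under either scaling. A single factor per array cannot change this distance, so it does not bear on the calls that were lost.

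Denervation left miR-9 close to the sham value. The log2 difference was 0.10 (95% confidence interval -0.26 to 0.47, limma adjusted p = 0.805), which does not show that the levels were equal. In that comparison 0% of the miRNAs were called lower and 0.457% higher (1 of 219, miR-21, seen after the fit), and 15.5% had an unadjusted p under 0.05. Between decompression and entrapment the log2 difference of miR-9 was -0.02 (95% confidence interval -0.28 to 0.24, limma adjusted p = 1). Here limma called 0 miRNAs in either direction, and 4.11% had an unadjusted p under 0.05.

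The same contrasts of miR-9* gave small log2 differences, none called. Denervation minus sham was 0.14 (limma adjusted p = 0.655). Entrapment minus sham was 0.18 (95% confidence interval -0.14 to 0.51, limma adjusted p = 0.367) and decompression minus sham was 0.12 (limma adjusted p = 0.534). Entrapment minus denervation was 0.04 (95% confidence interval -0.19 to 0.27, limma adjusted p = 0.776) and decompression minus denervation was -0.02 (limma adjusted p = 0.881). The intervals leave out a decrease of miR-9* of the size measured for miR-9. Against sham, miR-9* was called higher after median scaling, by a log2 difference of 1.03 in entrapment and 0.97 in decompression (limma adjusted p = 0.0056 and 0.0065). Without scaling the values were -0.17 and -0.22, neither called, so its direction against sham depended on the scaling.

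**Figure D2:**
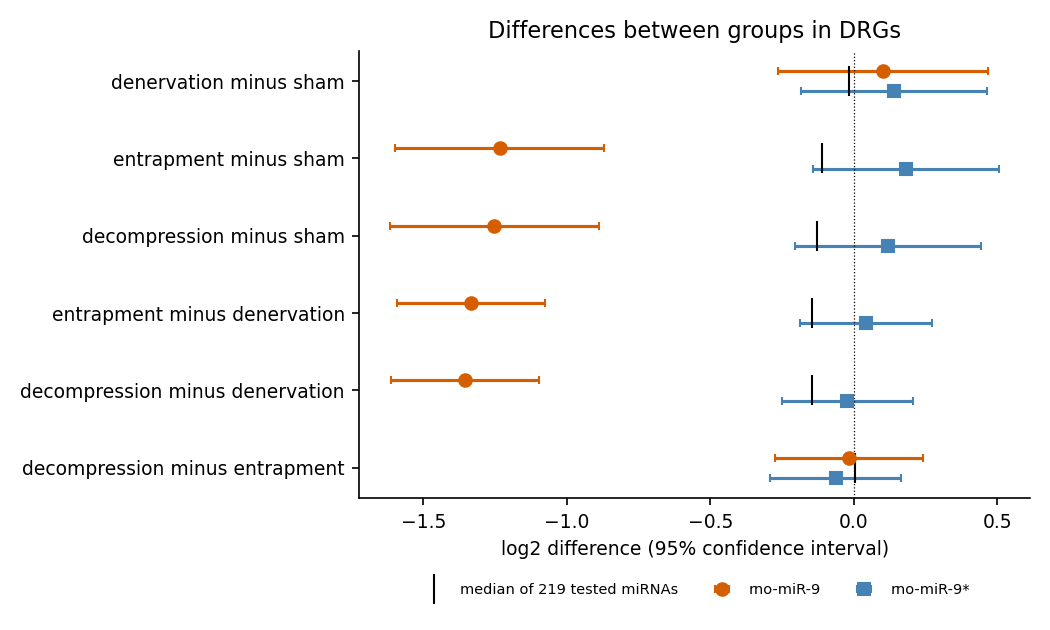
Log2 differences of miR-9 (circles) and miR-9* (squares) between DRG groups, with 95% confidence intervals from limma, and the median of the 219 miRNAs tested as a vertical mark. The 4 contrasts of entrapment or decompression with sham or denervation place miR-9 between -1.35 and -1.23, and every interval of miR-9* includes 0.

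By the 2-fold rule of the study's Methods, applied to each array against sham, miR-9 was at least 2-fold lower on 3 of 3 entrapment arrays, with log2 differences of -1.42, -1.12 and -1.16. It was also lower on 3 of 3 decompression arrays, with -1.20, -1.27 and -1.29. No denervation array passed, with 0.11, -0.07 and 0.27. The rule took 11.0% of the miRNAs tested as lower in entrapment, 13.7% in decompression and 0.913% in denervation. miR-9* passed on no array. Since each group is set against 1 sham array, its error enters all 9 values.

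The ratio of the strands within an array does not depend on any factor that multiplies a whole array, such as the 75th percentile. Its absolute size is not a ratio of molecules, because the probes may differ in efficiency. The log2 ratio of miR-9 to miR-9* was 0.58 in the sham array and 0.52, 0.45 and 0.65 in the denervation arrays. It was -0.85, -0.87 and -0.79 in the entrapment arrays and -0.62, -0.85 and -0.90 in the decompression arrays. The ratio was thus above 0 on all 4 sham and denervation arrays and below 0 on all 6 others. Across the 16 strand pairs whose strands were both detected on all 10 DRG arrays, 18.8% had all 6 below the other 4 and 25.0% had all 6 above.

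The mean log2 ratio was 0.54 ± 0.10 (SD, n = 3) in denervation, -0.84 ± 0.04 (SD, n = 3) in entrapment and -0.79 ± 0.15 (SD, n = 3) in decompression. Relative to miR-9*, miR-9 was 2.60-fold lower in entrapment than in denervation, a log2 change of -1.38 (SE 0.09, 95% confidence interval -1.59 to -1.17, adjusted p = 1.63e-06 by limma with Benjamini-Hochberg adjustment over 16 pairs). It was 2.52-fold lower in decompression than in denervation, a log2 change of -1.33 (limma adjusted p = 2.14e-06). Against sham the change was -1.42 in entrapment and -1.37 in decompression (limma adjusted p = 2.18e-05 and 2.82e-05). Denervation minus sham was -0.04 (95% confidence interval -0.34 to 0.26, limma adjusted p = 0.878). The strands thus changed unequally, and this held under all 16 or 17 alternatives run for each of the 4 called contrasts. Some alternatives alter only the error of the fit and not the log2 change. The processed values hold the same ratios with entrapment and decompression exchanged. This comparison was added after the values had been seen. With 3 arrays against 3, an exact permutation test cannot go below 0.1, the p it gave for entrapment against denervation.

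**Figure D3:**
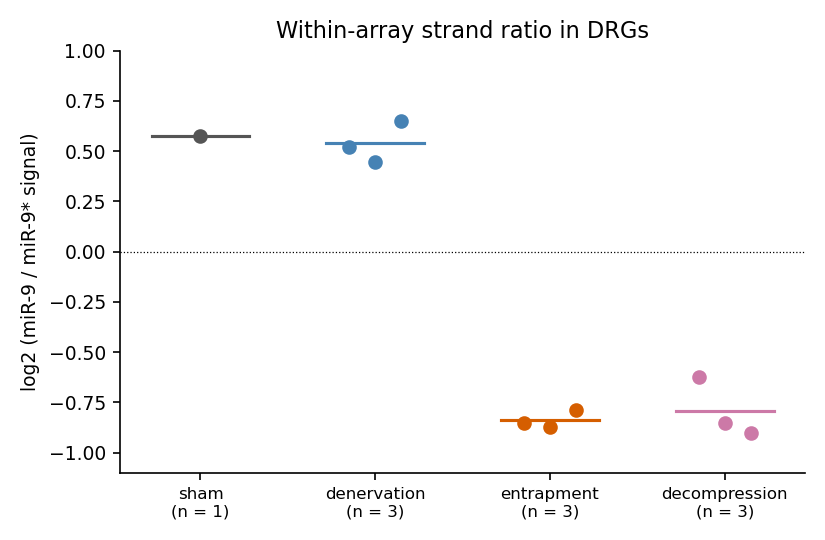
Log2 ratio of the miR-9 signal to the miR-9* signal on each DRG array, with 1 point per array and a line at each group mean. The sham and denervation arrays lie between 0.45 and 0.65, and the entrapment and decompression arrays between -0.90 and -0.62.

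Other strand pairs also shifted between these arrays, in both directions. In entrapment against denervation 31.2% of the 16 pairs were called with a lower ratio and 25.0% with a higher one. miR-9 had the largest decrease and the second largest change in size. The largest was that of miR-126 to miR-126*, 1.70 on the log2 scale (limma adjusted p = 9.74e-07), where miR-126* fell (log2 difference -1.67, limma adjusted p = 2.29e-06) and miR-126 gave 0.02 (limma adjusted p = 0.891). The ratio of miR-324-5p to miR-324-3p rose by 1.05 (limma adjusted p = 7.7e-06) and that of miR-409-5p to miR-409-3p fell by 0.80 (limma adjusted p = 0.00392). The ratios of miR-99a and miR-30e to their starred strands changed by -0.02 and 0.06, neither called. These pairs were named after their values were seen. The shift of miR-9 against its partner was therefore one of several, and whether it is particular to miR-9 was not tested.

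**Figure D4:**
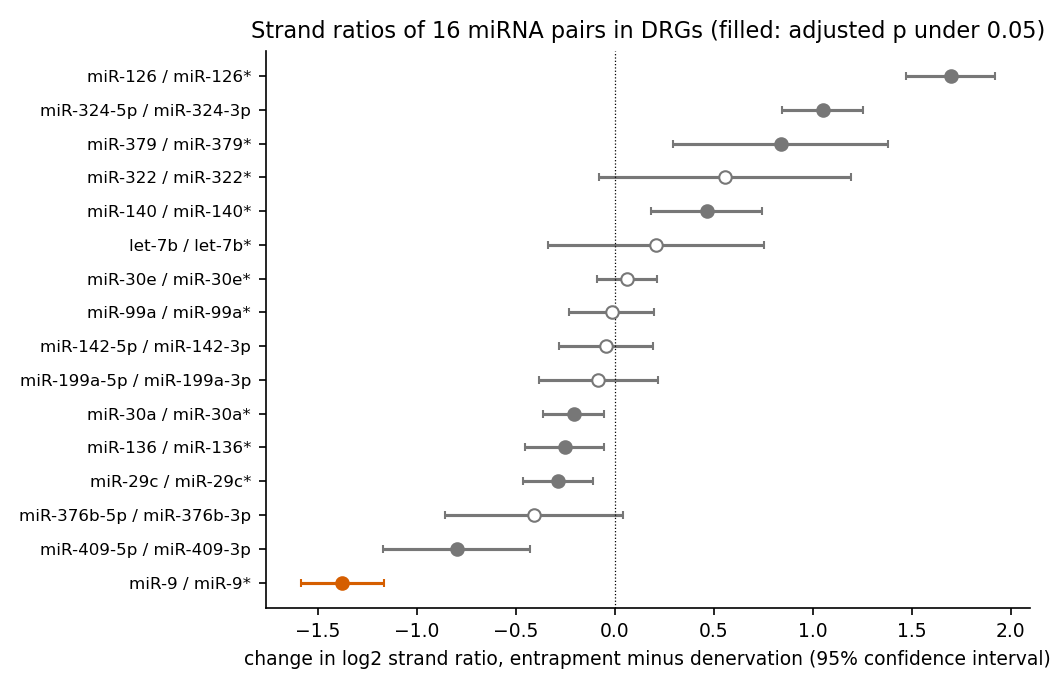
Change in the log2 strand ratio of 16 miRNA pairs in DRGs, entrapment minus denervation, with 95% confidence intervals from limma; filled points have an adjusted p under 0.05. The miR-9 pair has the lowest value (-1.38) and the miR-126 pair the highest (1.70).

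The 5 miRNAs whose log2 scaled signals were most like those of miR-9 over the 10 DRG arrays were miR-126*, miR-30c, miR-30b-5p, miR-541 and miR-24-2*, by Pearson's r among 172 other miRNAs detected on all 10. Their r was 0.991, 0.989, 0.987, 0.975 and 0.971, and Spearman's rho was 0.83, 0.915, 0.939, 0.927 and 0.794. These points share the gap between 2 sets of arrays and are a description only. miR-9* ranked 102 of the 172, with r = -0.09. Of the 5 sequences, 4 are in the RefSeq table and are shown with the seed in capitals, since likeness of sequence can be read from them.
miR-126*: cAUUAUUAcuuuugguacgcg
miR-30c: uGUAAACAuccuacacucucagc
miR-541: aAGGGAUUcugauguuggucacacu
miR-24-2*: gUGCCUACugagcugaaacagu
None of them has the seed of miR-9 or of miR-9*.

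miR-126*, from the hairpin of an endothelial miRNA in an intron of Egfl7, had scaled signals of 66.0 in sham, 60.6 to 68.1 in denervation, 19.1 to 22.5 in entrapment and 20.4 to 21.1 in decompression. miR-30c, of the broadly expressed miR-30 family, had 1258 in sham, 1386 to 1419 in denervation, 586 to 622 in entrapment and 568 to 587 in decompression. As with miR-9, the 6 arrays of entrapped and decompressed nerves were all below the other 4. The opposite order was found for 7.31% of the miRNAs tested. miR-9 itself was not among the extremes, at rank 30 from the lowest in entrapment minus sham.

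Against sham, the list of other neuronal miRNAs stood close to all miRNAs in entrapment and decompression and below them in denervation. Against denervation, entrapment and decompression placed the list above all miRNAs. Of 21 brain-enriched neuronal miRNAs on the array, 11 were tested, and in entrapment minus sham 2 were called lower and 0 higher, beside 17.4% lower and 2.28% higher of all miRNAs. The median log2 difference was -0.10 against -0.11 for all. The 2 were miR-212 (log2 difference -1.43, limma adjusted p = 0.00184), which is induced by neuronal activity, and miR-138* (-2.01, limma adjusted p = 0.00344). miR-138* was detected on 4 of the 10 DRG arrays. In entrapment and in decompression it stood at the floor used for low signals (2.31), so the floor set the size of its difference. miR-124, the most abundant neuronal miRNA of the brain, gave 0.12 (limma adjusted p = 0.466). In denervation minus sham 0 of the 11 were called, beside 0% lower and 0.457% higher of all miRNAs. The median there was -0.31 against -0.02 for all, and miR-124 gave -0.38 (limma adjusted p = 0.137).

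In entrapment minus denervation 2 of the 11 neuronal miRNAs were lower, again miR-212 and miR-138*, and 3 were higher. Beside them, 32.9% of all miRNAs were lower and 8.22% higher, and the median of the list was 0.14 against -0.15 for all. Those higher were miR-124 (log2 difference 0.50, limma adjusted p = 0.00128), miR-128 (0.41) and miR-7a (0.66). Of the lower ones, miR-138* was again at the floor in entrapment. It was tested only because of its detection in other groups, so a lower call for it was favoured in advance. The sensory neuron cluster, which marks sensory cells, had 0 of 3 called against sham and 2 of 3 higher in entrapment than in denervation, miR-183 (0.48) and miR-96 (0.27). The remaining member, miR-182, gave log2 differences of -0.11 in entrapment minus denervation, -0.31 in entrapment minus sham and -0.26 in decompression minus sham, none called. The summed scaled signal of the 3 cluster members was 2562 in sham, 2169 to 2458 in denervation, 2563 to 2895 in entrapment and 2684 to 2864 in decompression.

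Markers of other cells gave mixed values along the same contrasts. Of the glial and myelin miRNAs 3 of 5 were tested, and in entrapment minus denervation 2 were lower, beside 32.9% of all miRNAs: miR-338* (log2 difference -1.96, limma adjusted p = 0.0117) and miR-219-5p (-0.49, limma adjusted p = 0.049). Of the 10 DRG arrays, miR-338* was detected on 9 and miR-219-5p on 8. The arrays without detection were entrapment arrays, so values below detection enter both differences. miR-338 gave -0.03 there and was called higher in entrapment minus sham (0.52, limma adjusted p = 0.029). The glial list summed to a scaled signal of 8128 in sham, 11069 to 12675 in denervation, 10516 to 12511 in entrapment and 9977 to 11412 in decompression. Of the 5 leukocyte miRNAs on the array 3 were lower in entrapment than in denervation (miR-142-3p, miR-142-5p and miR-150), and 0 were called in decompression minus denervation, beside 27.9% lower of all miRNAs. The 5 summed to a scaled signal of 1043 in sham, 845 to 1336 in denervation, 643 to 760 in entrapment and 898 to 1112 in decompression. The red cell miRNAs miR-144 and miR-451 summed to 3049 in sham, 697 to 1573 in denervation, 887 to 2917 in entrapment and 1434 to 4313 in decompression, with neither called. The part of these cell types, and of the neuronal lists, in the difference of miR-9 was not tested.

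The distance between the strands was similar whichever way the arrays were scaled, while their position against 0 was not. Without scaling, the log2 difference of entrapment minus denervation was -1.78 for miR-9 and -0.40 for miR-9*. After median scaling it was -0.69 and 0.68, with the median of all miRNAs at 0.49. miR-9 was called lower than denervation under each of the 22 alternatives, in entrapment and in decompression.

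**Figure D5:**
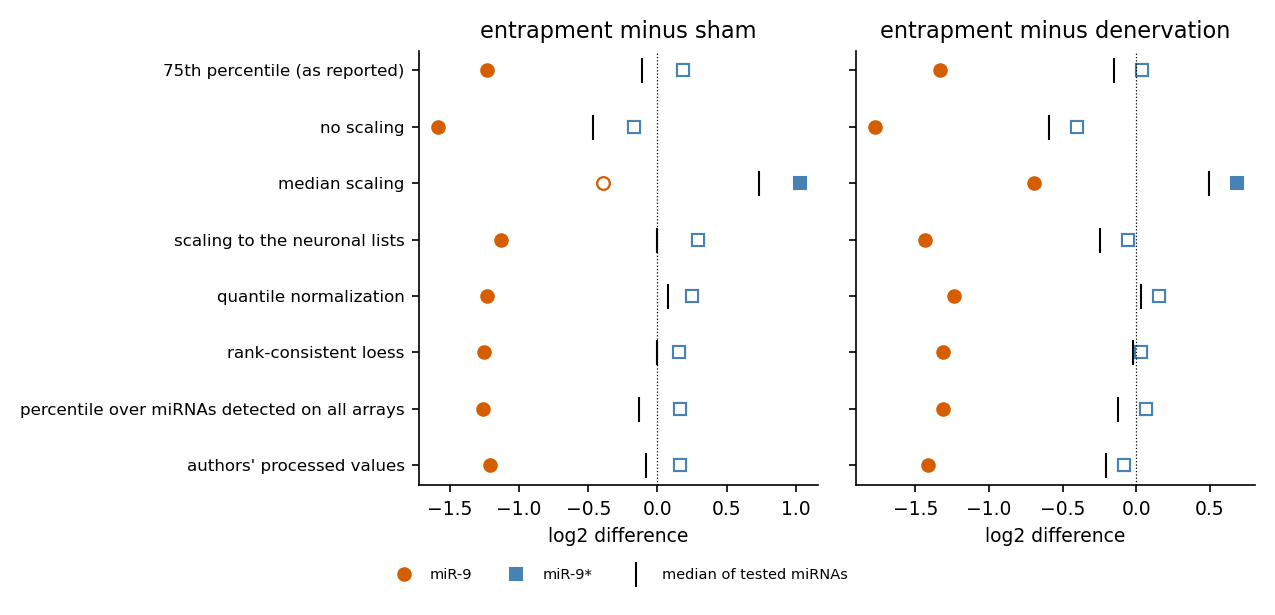
Log2 differences of miR-9 (circles) and miR-9* (squares) in DRGs under 8 ways of scaling the arrays, with the median of the miRNAs tested as a vertical mark; filled symbols have a limma adjusted p under 0.05. Without scaling and under median scaling both strands and the median shift together, miR-9 lies left of the median and miR-9* right of it in every row, and in entrapment minus sham miR-9 is open under median scaling (-0.39). A single factor per array keeps the spacing of these marks. Apart from the processed values, whose columns are exchanged, only the quantile and loess rows could differ in it.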

How the data were processed

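RNA of each sample was measured on 1 Agilent rat miRNA array in 1 colour (labelling by pCp-Cy3 ligation in the Methods, by Cy3-CTP amplification per the labels). The authors deposited total gene signals, background-subtracted intensities from Agilent Feature Extraction 9.5.3 with errors and detection calls, not normalized between arrays. They also deposited a processed signal per miRNA, equal in DRGs to the scanner intensity divided by a constant per array; 6 entrapment and decompression columns held values of the other group. LOWESS and GeneSpring are named in the Methods without settings.

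Of 350 miRNAs, 348 had 1 name in every file. DRG signals were divided by the 75th percentile over these 348, set to a floor of 2.31 and log2 transformed. The soleus percentile was taken over 108 miRNAs detected on all arrays, and that of all 20 arrays over 102. miRNAs detected on at least 3 of 10 arrays were tested with limma 3.58.1 in R 4.3.3, with a mean per group and no covariate (residual degrees of freedom: 6) and Benjamini-Hochberg adjustment at 0.05, two-sided. Intensities give no counts, so the number of arrays limits the precision. The fit was tested on simulated data. No slide or scan batch could be read from these files, so none was fitted.

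The rule for named miRNAs took both miR-9 strands, the neuronal, sensory and glial lists and the 5 most like miR-9; strand partners, miR-21 and members of the muscle, leukocyte, red cell and connective tissue lists were named in addition, after their values were seen. Members and lists were chosen with earlier results of these data known. The strand ratio was added after seeing the data. Plots were made in Python 3.11.15 (matplotlib 3.10.9).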

Additional observations from a re-analysis of the deposited data

How the results depend on the processing

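miR-9 was lower than denervation, and the strand ratio lower than denervation and sham, under every alternative run. Against sham, 20 of 21 alternatives kept the call of miR-9 in entrapment and in decompression; median scaling did not (-0.39 and -0.40). Leaving out single injury arrays gave -1.29 to -1.14 for miR-9 in entrapment minus sham, -1.28 to -1.24 in decompression minus sham, -1.42 to -1.24 in entrapment minus denervation and -1.44 to -1.27 in decompression minus denervation. The tissue difference kept its call in 26 of 26 alternatives (log2 6.69 to 8.30), which detection on DRG arrays alone made near certain. The sign of miR-9* turned without scaling against sham (-0.17 in entrapment, -0.22 in decompression). In entrapment minus denervation it turned without scaling (-0.40), with scaling to the neuronal lists (-0.056) and with the processed values (-0.085), and leaving out arrays gave -0.031 to 0.12. In decompression minus denervation it turned with median scaling (0.63, now called) and quantile normalization (0.00031), leaving out arrays gave -0.064 to 0.037, and no scaling gave a call (-0.45, limma adjusted p = 0.0424). Median scaling also called it higher in entrapment minus denervation (0.68), entrapment minus sham (1.03) and decompression minus sham (0.97). In decompression minus entrapment, never called, the processed values, whose columns are exchanged, turned miR-9 (0.029), miR-9* (0.074) and the ratio (-0.045), and leaving out arrays gave -0.11 to 0.036, -0.15 to 0.0078 and -0.039 to 0.10. The ratio of denervation minus sham was 0.0061 with the replicate block and -0.095 to 0.0067 leaving out arrays. The cause of these turns was not tested.

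Whether equal replicate numbers mark paired arrays could not be decided with so few arrays per number. Correlations of deviations were 0.26 to 0.44, -0.09 to 0.48 and -0.12 to 0.10 for numbers 1, 2 and 3. Of the 9 injury arrays, 5 correlated best with their own number. With the replicate block miR-9 gave -1.28, -1.30, -1.34 and -1.35 in the 4 called contrasts and changed no call.

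The counts of miRNAs called moved more than the value of miR-9. For denervation minus sham the count of 1 became 41 with scaling to the neuronal lists, 16 with quantile normalization or no filter and 6 with loess. For entrapment minus sham 43 became 141 with median scaling, 67 without scaling or filter, 66 with quantile normalization and 22 among miRNAs detected on all arrays. For decompression minus sham 40 became 148, 61 with quantile normalization or the other percentile set, and 20. Entrapment minus denervation moved from 90 to 150 with median scaling and to 59 without denervation replicate 1. Decompression minus denervation moved from 80 to 154 with median scaling, 129 without scaling and 53 among miRNAs detected on all arrays. Alternatives for soleus were not run, since neither strand was detected there.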

Other observations

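Some lists of miRNAs have not been described above. In the DRGs, the connective tissue and smooth muscle miRNAs (miR-143, miR-145, both strands of miR-199a and miR-214) had 1 of 5 lower (miR-145, log2 difference -1.09, limma adjusted p = 0.000428) and 0 higher in entrapment minus denervation, beside 32.9% lower and 8.22% higher of all miRNAs, with a median log2 difference of -0.17 against -0.15 for all miRNAs. Their summed scaled signal was 1310 in sham, 1308 to 1376 in denervation, 1413 to 1553 in entrapment and 1072 to 1652 in decompression. The muscle miRNAs, of which 5 of 6 were tested in the DRGs, had 1 lower (miR-133a, -0.61) and 1 higher (miR-133b, 0.49) in the same contrast, beside the same shares. miR-155 of the leukocyte list is not on the array.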
